A study of Mus musculus with 24 samples.

Results

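This account sets mouse oocytes against late preimplantation embryos by the genes whose bodies overlapped N6-methyladenosine (m6A) peaks. Peak strand and exons were not used, so a peak need not lie on the transcript of the gene it overlaps. The members are 8 of the series' 24 libraries: the m6A immunoprecipitation (IP) libraries of germinal vesicle (GV) oocytes and of oocytes in metaphase II (MII), and those of 8-cell embryos and blastocysts, with 2 libraries per stage. For each protein-coding gene, the libraries with a peak overlapping the gene body were counted, 4 on the oocyte side against 4 on the late embryo side. A gene with such a peak is called marked. Of 21883 protein-coding genes in the RefSeq table, 9352 were marked in at least 1 of the 8 libraries. Of these, 818 genes were marked in all 4 oocyte libraries and in no late embryo library, 602 genes in all 4 late embryo libraries and in no oocyte library, and 1363 in all 8.

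All cells came from C57BL/6N mice with no genetic change named in the labels, from females 8 weeks old that had received gonadotropins. GV oocytes were taken from ovarian follicles 48 h after pregnant mare serum gonadotropin, held at the GV stage with a phosphodiesterase inhibitor, and kept only when of the surrounded-nucleolus type. The 3 other stages also received human chorionic gonadotropin (hCG): MII oocytes were collected from the oviduct 14 h after it, 8-cell embryos at 68 to 70 h and blastocysts at 92 to 94 h, the embryos after mating. The zona pellucida was removed in every group. Each library is a pool, of 49 and 49 GV oocytes, 100 and 110 MII oocytes, 100 and 51 8-cell embryos, and 100 and 100 blastocysts. The labels call the replicates biological but do not say whether pools shared animals, so a p-value here covers the spread between these pools. Zygote (27 to 28 h) and 2-cell (39 to 43 h) libraries entered no comparison of the 2 sides and are given beside the genes only to show where a peak began or ended.

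N6-methyladenosine is a methyl group that a nuclear writer complex built around METTL3 and METTL14 adds to adenosines of RNA while it is transcribed. In most tissues the mark is dense around stop codons, in 3′ untranslated regions and in long internal exons. Reader proteins of the YTH family bind it, and YTHDF2 and YTHDC1 have roles in transcript turnover and nuclear processing. Full-grown oocytes are largely silent in transcription and live on stored maternal RNA. After fertilisation most of that RNA is cleared while the embryo's own genome is switched on. A blastocyst has an outer trophectoderm, which makes placenta, and an inner cell mass that forms epiblast and primitive endoderm.

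The 8 lists held 77997 peaks in all, 200 to 3754 bp wide. Oocyte libraries had 8965 to 11959 peaks and late embryo libraries 7943 to 9463, and these ranges overlapped. The median fold enrichment that the authors' peak caller gave each peak was 4.59 to 4.98 in oocyte libraries and 5.68 to 6.79 in late embryo libraries. The median −log10 q ran the other way, at 26.3 to 33.3 and 10.7 to 18. Sequencing depth is unknown, since peak lists carry no read counts. A peak needs a transcript as well as a modified base, so a library without one cannot tell an unmodified RNA from a scarce one, nor fewer cells of a type from less RNA per cell. The labelled cells were checked against marker genes. The oocyte list had 3 or 4 of 7 markers marked in each oocyte library and 0 to 2 in each late embryo library: the oocyte growth factors Gdf9 and Bmp15 were marked in 4 oocyte libraries and 1 late embryo library, and Nlrp5 in 4 and 0, while Zp3, Ooep and Oosp2 never were. Of 8 trophectoderm markers 2 were marked in every oocyte library and 5 in every late embryo library, with Krt8, Krt18 and Krt7 never marked. Inner cell mass markers counted 1 to 3 of 7 against 5 to 7, and primitive endoderm markers 0 of 6 against 2 or 3. Of 10 cumulus and granulosa cell markers, 0 or 1 were marked in any library of either side. Among 6 sperm and testis genes, Prm2, a protamine that packs sperm DNA, was marked in all 4 oocyte libraries and no late embryo library, and the other 5 in none.

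The first question was how many genes separated the 2 sides completely. Genes with 4 oocyte and 0 late embryo libraries made up 8.75% of the 9352 marked genes, those with 0 and 4 made up 6.44%, and both together were 1420 genes, or 15.2%. Fisher's exact test on 4 against 4 libraries gives p = 0.0286 for any gene that separates the sides completely. The test therefore restates the pattern by which these genes were chosen and is no separate evidence for them. Only the 1821 genes marked in exactly 4 of the 8 libraries could reach that value. Over these 1821 genes, Fisher's exact test had a Benjamini-Hochberg adjusted p of 0.0366, which is fixed by the numbers 1420 and 1821. The test also counts the 2 libraries of a stage as independent. Adjusted over all 9352 genes, Fisher's exact test called 0 genes (adjusted p = 0.188), although 818 and 602 had an unadjusted p under 0.05. Without any 1 of 7 of the libraries the test also called 0 genes, with adjusted p from 0.0503 to 0.0571. Without Blastocyst replicate 2 it called 871 oocyte and 828 late embryo genes.

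The 8 lists can be divided into 4 and 4 in 35 ways. Oocytes against late embryos separated 1420 genes completely, and each of the other 34 divisions separated 0 to 47, with a median of 9. This gave p = 0.0286 in an exact permutation test (one-sided, over the 35 divisions), the smallest this design allows. The divisions that keep replicates together, GV with 8-cell and GV with blastocyst, separated 37 and 47 genes. With whole stages as units there are only 3 arrangements and no p under 0.333. Of the genes one library short of a complete contrast, 292 had 3 oocyte and 0 late embryo libraries and 237 had 4 and 1, while 466 had 0 and 3 and 146 had 1 and 4.

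**Figure D1:**
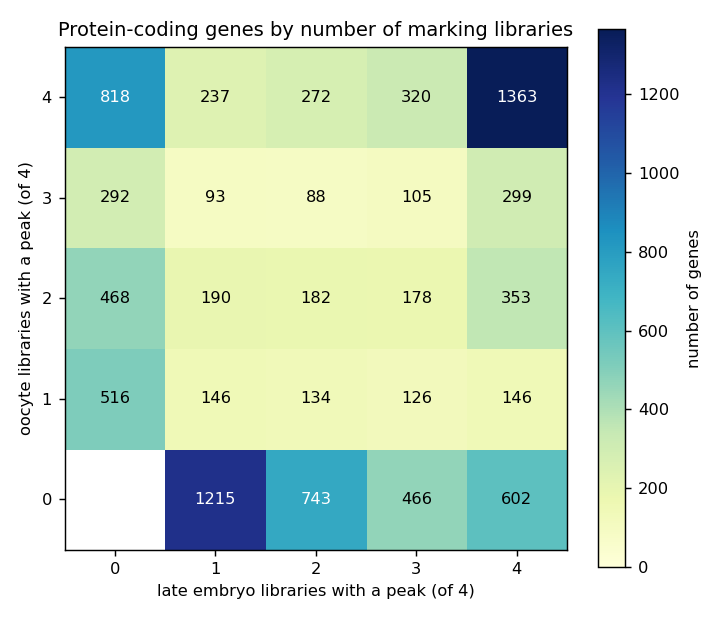
Number of protein-coding genes by how many of the 4 oocyte libraries (vertical axis) and 4 late embryo libraries (horizontal axis) had a peak in the gene body; genes marked in none are left blank. The corners hold 818 genes marked in oocytes only, 602 in late embryos only and 1363 in all 8 libraries.

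Peak positions told the sides apart as well. The Jaccard index, the bases shared by 2 peak lists divided by the bases covered by either, averaged 0.54 between replicates of a stage (0.368 to 0.707, 4 pairs). It averaged 0.452 between GV and MII libraries (0.421 to 0.475), 0.355 between 8-cell and blastocyst libraries (0.291 to 0.435), and 0.166 across the 2 sides (0.116 to 0.23, 16 pairs). No pair across sides reached the lowest pair within a side. Pairs within a side exceeded pairs across sides by 0.283 on average, the largest of the 35 divisions (p = 0.0286, exact permutation test, one-sided). Pairs within a side include replicates of a stage, which nearly all of the other divisions split. With whole stages as units, no exact permutation p under 0.333 was possible for this value either.

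Oocyte lists had more of their peaks outside genes, and late embryo lists more of theirs inside protein-coding genes. Each peak was placed by its midpoint in a protein-coding gene, in a non-coding gene only, or outside all genes of the table. Peaks outside genes were 21.7% and 20.7% of the 2 GV lists and 19.5% and 22.4% of the 2 MII lists. They were 8.49% and 7.39% of the 8-cell lists and 3.76% and 7.13% of the blastocyst lists. The 2 sides did not overlap, with 21.1% ± 1.27 (SD, n = 4) against 6.69% ± 2.04 (SD, n = 4) and p = 0.0286 in an exact permutation test (two-sided). The share in protein-coding genes was 72.2% ± 1.61 against 88.6% ± 2.66, and the share in non-coding genes only was 6.75% ± 0.474 against 4.69% ± 0.647 (SD, n = 4 each; exact permutation p = 0.0286 for both). Adjusted over these 3 shares, p stayed at 0.0286, and adjusted over the 9 library values compared here it was 0.0643.

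Within protein-coding genes the share of peaks near the 3′ end differed more between the 2 oocyte stages than between GV oocytes and embryos. Among genes over 10000 bp with a known strand, peaks within 2000 bp of the 3′ gene end were 27.1% and 27.2% of the GV peaks, 16.9% and 17.6% of the MII peaks, 29.5% and 32.5% of the 8-cell peaks and 31.4% and 27.4% of the blastocyst peaks. The lowest embryo library lay just above the highest GV library, while both MII libraries stood well below. The means were 22.2% ± 5.72 and 30.2% ± 2.27 (SD, n = 4 each; exact permutation p = 0.0286, adjusted 0.0643 over 9 values). Leaving out either MII library gave an exact permutation p of 0.0571, and leaving out any 1 late embryo library gave 0.0857 to 0.114. In genes over 20000 bp, peaks more than 5000 bp from both gene ends were 51.1% and 51.7% in GV, 61.6% and 61.7% in MII, 49.6% and 46.9% in 8-cell and 45.9% and 51.8% in blastocyst lists. These ranges overlapped (exact permutation p = 0.0857). The number of marked protein-coding genes per library also overlapped, at 4620.2 ± 579 in oocytes and 4839.0 ± 308 in late embryos (SD, n = 4 each; exact permutation p = 0.571). So did the median peak width (306 and 270 bp, exact permutation p = 0.229) and the number of peaks per marked gene (1.73 and 1.68, exact permutation p = 0.429).

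**Figure D2:**
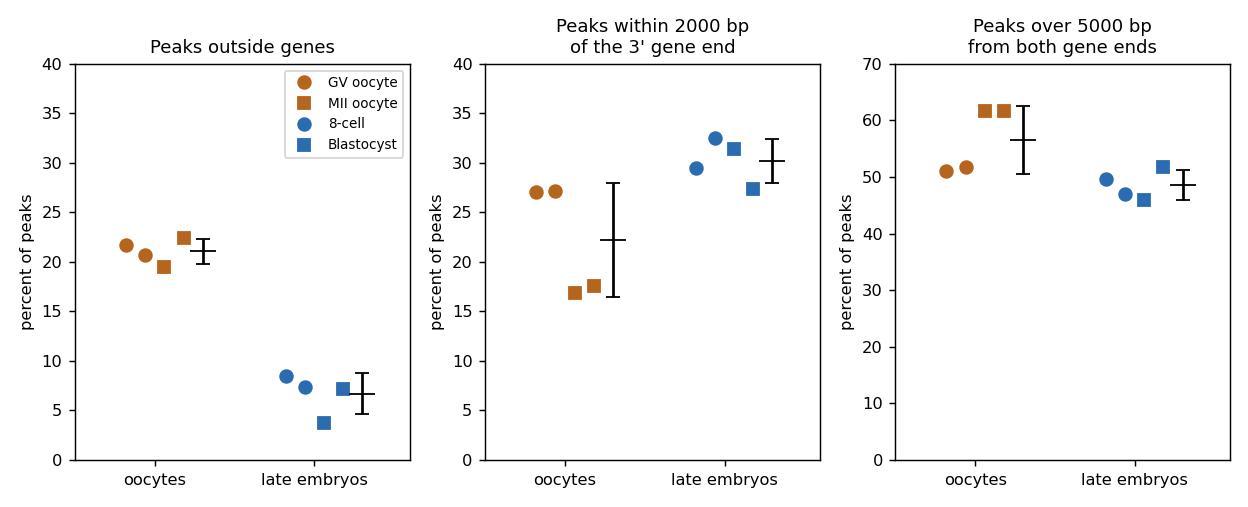
Percent of peaks outside genes, within 2000 bp of the 3′ gene end and over 5000 bp from both gene ends, 1 point per library; the black bar is the mean with its SD over 4 libraries. Peaks outside genes separate oocytes (19.5% to 22.4%) from late embryos (3.76% to 8.49%), whereas for the other measures the GV libraries lie beside the embryos and the MII libraries apart.

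The oocyte-only genes that ranked highest had varied roles, among them a transporter, a ligand, transcription factors and a DNA repair enzyme. Genes were ranked within each list by their best peak, from the percentile of that peak's q among all peaks of the list, and the 14 highest of each direction are described here. Slco3a1, an organic anion transporter, came first, with a fold enrichment of its best peak of 16 and 15 in GV and 15.3 and 20.4 in MII libraries. It stayed marked in both Zygote libraries (22.2 and 20.7) and both 2-cell libraries (17.3 and 14.3), and had no peak in the 4 late embryo libraries. Rgs2, a regulator of G-protein signalling that acts in the egg before fertilisation, had folds of 5.83 and 5.69 in GV and 5.96 and 5.33 in MII libraries, and 3 peaks in its 4812-bp gene in each of them. It was still marked in both Zygote libraries and in neither 2-cell library. Eif4e3, of the family of cap-binding translation factors, had 1 peak in each oocyte, Zygote and 2-cell library, with folds of 5.42 to 7.39 in oocytes.

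Tgfb2, a TGF-beta ligand, had folds of 9 and 5.83 in GV and 5.19 and 6.35 in MII libraries, from a peak 2201 bp from its 3′ end in GV replicate 1. The homeobox gene Gbx2 had almost the same fold in every library from GV to 2-cell, 8.14 to 9.59. In GV replicate 2 its best peak lay 732 bp from the 3′ end of the 3215-bp gene. Meis2, also a homeobox gene, had folds of 8.64 and 8.49 in GV and 4.15 and 4.4 in MII libraries. Obox1 and Obox2, oocyte-specific homeobox genes, had folds of 4.23 to 8.14 and 2.86 to 4.63. In GV replicate 1 their best peaks lay 378 and 365 bp from the 3′ end. Obox1 kept a peak in both 2-cell libraries and Obox2 in neither.

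The rest of the 14 were Pramel34 of the PRAME-like family, the serotonin receptor Htr5a, Trim75, the DNA glycosylase Neil3, the poly(A) polymerase Tent5b and the calmodulin-binding transcription activator Camta1. Neil3 had folds of 6.59 to 12.6 in oocytes and 17.3 and 12.4 in Zygote libraries. In GV replicate 1 its best peak, with a fold of 8.62, lay 22554 bp inside the gene. Camta1, which spans 802246 bp, had 1 peak in 3 of the 4 oocyte libraries and 2 in MII replicate 1, with folds of 8.46 to 14.1 and the strongest 3151 bp from its 3′ end. Obox, Oog and Pramel genes are families of close copies, and how reads that match several copies were placed is not given in the sources used here. All 14 had peaks in both Zygote libraries.

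Late-embryo-only genes that ranked highest were led by Frrs1, a ferric-chelate reductase. Its folds were 31.9 and 32.7 in 8-cell and 30.4 and 47 in blastocyst libraries, against 6.11 and 11.1 in the 2-cell libraries and no peak earlier. The peak in Blastocyst replicate 2 lay at chr3:116903062-116903536 (mm10), 4415 bp before the 3′ end of the gene. Calcoco2, an autophagy receptor, had 1 peak in each 2-cell, 8-cell and blastocyst library, with folds of 6.07 and 5.37 in 8-cell and 3.09 and 3.56 in blastocyst libraries. The PRAME-like genes Pramel6 and Pramel7, active in preimplantation embryos, had folds of 8.68 to 14 and 7.11 to 10.6 in the late libraries and were marked in both 2-cell libraries.

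Klf5, a Krüppel-like transcription factor of the early embryo, had folds of 10.7 and 4.97 in 8-cell and 5.7 and 4.62 in blastocyst libraries. In 8-cell replicate 1 its best peak lay across one end of the gene. Spry2, a feedback inhibitor of receptor tyrosine kinase signalling, had folds of 10.3 and 17.3 in 8-cell and 11.9 and 8.77 in blastocyst libraries. Its strongest blastocyst peak, at chr14:105896626-105897057, lay across the start of the gene. Both genes were marked in both 2-cell libraries and in no Zygote library. Translation and protein folding supplied further members: the ribosomal protein gene Rpl4 (2.73 to 3.7), the ribosome biogenesis factor Rbis (10.8 to 21.4), the poly(A)-binding protein gene Pabpc1 (4.72 to 6.26) and the HSP40 chaperone Dnaja1 (3.87 to 5.96).

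The fatty acid elongase Elovl6 had folds of 5.6 to 8.97, the zinc finger gene Zfp985 6.84 to 19.7, the solute carrier Slc49a4 6.51 to 11.7 and the endoplasmic reticulum gene Tmem41b 4.07 to 6.28 in the late libraries. Dnaja1 and Tmem41b had no peak in either 2-cell library. Khdc3, a component of the oocyte's subcortical maternal complex, also ranked high among genes without a 2-cell peak. Khdc3 was marked in no oocyte library, in 1 Zygote library (7.07), and in all late libraries with folds of 6.03, 6.33, 4.68 and 4.17.

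**Figure D3:**
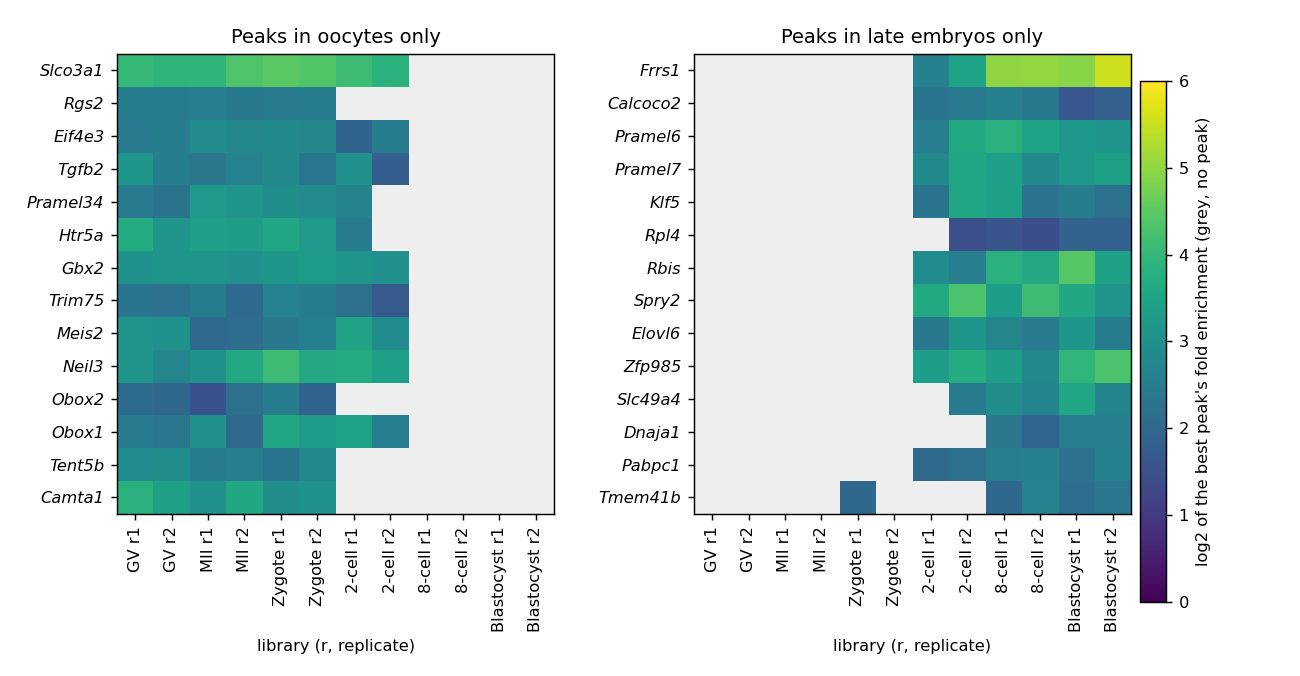
Log2 of the authors' fold enrichment of each gene's best peak in the 12 IP libraries for the 14 highest-ranked genes of each direction; grey means no peak, and r is the replicate. Oocyte-only genes continue into both Zygote libraries and 10 of them into at least 1 of the 2-cell libraries, while late-embryo-only genes begin mostly at the 2-cell stage, Frrs1 reaching 47 in Blastocyst replicate 2.

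Sets of genes by function are given as the number of members at 4 against 0, beside the share over all marked genes of 8.75% for oocytes and 6.44% for late embryos. The median over all marked genes of oocyte libraries minus late embryo libraries was 0.

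Among 14 marked genes of the zona pellucida and oocyte growth factor list, 6 were oocyte-only and 0 late-embryo-only, with a median difference of 3 libraries. Another 11 of its 25 members had no peak in the 8 libraries, among them the zona genes Zp1, Zp2 and Zp3. The growth factors Gdf9 and Bmp15 were not among the 6, each being marked in 4 oocyte libraries and 1 late embryo library. Gja4, the connexin of the gap junctions between oocyte and granulosa cells, had folds of 9.58 and 10.7 in GV and 9.46 and 5.56 in MII libraries. The BMP receptor gene Bmpr1b had 5.62 to 10.1, and the oogenesin genes Oog2 and Oog4 2.74 to 5.18 and 2.8 to 4. Astl encodes ovastacin, the cortical granule protease that cleaves a zona protein after fertilisation. It had folds of 5.45 and 4.27 in GV and 2.38 and 3.13 in MII libraries. Unlike Gja4, Bmpr1b, Oog2 and Oog4, Astl had no peak in either Zygote library.

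Meiotic arrest and egg activation genes counted 5 oocyte-only, 0 late-embryo-only and 5 marked in all 8 libraries, of 19 marked. Besides Rgs2 these were Pde3a, the oocyte's cyclic AMP phosphodiesterase (2.48 to 3.79), Fbxo43, the inhibitor of the anaphase-promoting complex that holds MII arrest (6.83 and 8.46 in GV, 3.7 and 3.74 in MII), the inhibitory kinase Wee2 (1.79 to 3.51) and Mos, the kinase of cytostatic arrest (4.09 to 6.63). Fbxo43, Wee2 and Mos were marked in both Zygote libraries and in no 2-cell library.

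Of 23 marked genes of maternal mRNA storage and decay, 4 were oocyte-only, 1 late-embryo-only and 5 marked in all 8. Zar1l, related to zygote arrest 1, had folds of 3.68 and 3.74 in GV and 5.96 and 6.39 in MII libraries. Eif4e1b, an oocyte cap-binding protein, had 1.76 to 2.48, Pabpn1l, an oocyte poly(A)-binding protein, 2.74 to 4.26, and Tent5b 5.51 to 7.71. The late-embryo-only member was Tut4, a terminal uridylyltransferase that acts in RNA decay, with 8.33 and 4.6 in 8-cell and 10.5 and 11.3 in blastocyst libraries. The list of retrotransposon and small RNA silencing had 2 oocyte-only genes and 0 of the other kind among 16 marked: Gtsf1, a partner of the piRNA pathway (11 and 10.2 in GV, 5.31 and 4.02 in MII), and Henmt1, which methylates the 3′ ends of piRNAs (2.44 to 3.39).

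In the FGF and ERK list, 5 of 22 marked genes were late-embryo-only, 1 was oocyte-only and 2 were marked in all 8 libraries, with a median difference of -1.5 libraries. The ligand Fgf9 was the oocyte-only gene, with folds of 14.3 and 15.1 in GV and 8.35 and 7.09 in MII libraries. On the late side stood the receptor Fgfr1 (3.04 to 8.88), the adaptor Grb2 (1.85 to 5.95), the exchange factor Sos1 (5.42 to 13.5), the kinase gene Map2k2 (3.72 to 9.75) and the inhibitor Spry2. Sos1 and Spry2 were already marked in both 2-cell libraries, Fgfr1 in neither.

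In the TGF-beta and BMP list 4 of 23 marked genes were oocyte-only, 1 was late-embryo-only and 2 were marked in all 8, and the median difference was 0, as over all genes. Whether the 2 lists differ was not tested. The ligands Tgfb2, Tgfb3 (2.12 to 6.76) and Inhba (5.45 to 6.32) and the transducer Smad1 (3.89 to 9.49) were oocyte-only. Smad7, an inhibitory member of the family, was late-embryo-only, with folds of 7.79 and 8.88 in 8-cell and 7.45 and 5.76 in blastocyst libraries. Inhba lost its peaks by the Zygote libraries, whereas Tgfb2 was still marked in both 2-cell libraries. Of 20 marked WNT pathway genes 0 were oocyte-only and 1 was late-embryo-only, the receptor Fzd5 (6.03 to 15), a share near that over all genes.

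Hippo and Notch genes had 0 oocyte-only and 4 late-embryo-only members of 24 marked, 6 were marked in all 8 libraries, and the median difference was 0. Tead4, the TEAD factor that specifies trophectoderm, had folds of 5.65 and 5.44 in 8-cell and 6.8 and 9.15 in blastocyst libraries, after 3.29 and 6.49 in the 2-cell libraries. Amotl2 (8.44 to 9.27), Tead1 (4.79 to 7.12) and the Notch target Hes1 (3.59 to 8.61) had no 2-cell peak.

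The largest late-embryo-only share of the 18 lists belonged to trophectoderm and primitive endoderm genes, 8 of 25 marked against 0 oocyte-only, with 5 marked in all 8 and a median difference of -2 libraries. Cdx2, the trophectoderm homeobox factor, had folds of 10.4 and 6.47 in 8-cell and 5.82 and 6.54 in blastocyst libraries. Eomes, a T-box factor of trophoblast, had 11.1 and 10.2, then 14.6 and 8.44. Gata6, the primitive endoderm GATA factor, had 6.75 and 9.23, then 7.54 and 5.51. The primitive endoderm receptor gene Pdgfra, one of the markers checked, had 5.14 and 9.2, then 12 and 16.2. None of these 4 genes had a peak in a Zygote or 2-cell library. Their lack of oocyte peaks and their peaks at both late stages follow from how they were chosen. Other members of the list differed. Gata2 had peaks only in blastocyst libraries (6.4 and 3.39) and Sox17 only in Blastocyst replicate 1 (5.85). Hand1 had peaks in both 8-cell libraries (5.53 and 2.57) and no blastocyst library. The glucose transporter gene Slc2a3 had 4.44 to 5.85 and showed the same order.

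Pluripotency and inner cell mass genes counted 4 late-embryo-only and 1 oocyte-only, the already described Gbx2, of 24 marked, with 4 marked in all 8 and a median difference of -1.5 libraries. Klf9 (10.8 to 18.8), Zfp42, also called Rex1 (3.32 to 5.3), and Klf5 were marked in both 2-cell libraries, and Sall1 (5.48 to 8.64) in neither.

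Fatty acid, sterol and lipid droplet genes had 5 late-embryo-only and 0 oocyte-only of 21 marked, with a median difference of -2 libraries. Fasn, the fatty acid synthase, had folds of 11 and 12.1 in 8-cell and 14.1 and 3.96 in blastocyst libraries. Cpt1a, the carnitine transferase of mitochondrial fatty acid import, had 6.42 to 10.9, and Dhcr7, the last enzyme of cholesterol synthesis, 4.28 to 9.03. Dhcr7 was marked in both Zygote libraries although in no oocyte library. Glucose and amino acid genes had 4 late-embryo-only and 1 oocyte-only of 15 marked, with a median difference of -2 libraries. The late side included Slc2a3, the hexokinase gene Hk2 (5.67 to 10.8) and the amino acid carrier Slc7a6 (4.86 to 9.27), none of which had a 2-cell peak. The oocyte-only gene was the glycine transporter gene Slc6a9 (2.29 to 4.36).

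Ribosome biogenesis genes counted 4 late-embryo-only and 0 oocyte-only of 22 marked, with 8 marked in all libraries and a median difference of 0. Nop2, an RNA methyltransferase of the nucleolus, had folds of 4.83 to 7.74, the RNA polymerase I subunit gene Polr1b 5.39 to 10, and Nhp2, a small nucleolar ribonucleoprotein component, 1.78 to 3.22. Of 24 marked cytosolic ribosomal protein genes, 3 were late-embryo-only and 0 oocyte-only: Rpl4, Rps6 (1.47 to 1.82) and Rpl10l (10.5 to 27.6), an intronless copy whose reads could be shared with its parent gene. The median difference of this list was -2 libraries.

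Several lists showed little complete separation. Of 34 marked genes of DNA and histone methylation 14 were marked in all 8 libraries, 3 were late-embryo-only and 1 oocyte-only. The oocyte-only gene was Dnmt1, the maintenance DNA methyltransferase, with 2 peaks in each GV and 9 in each MII library and folds of 5.28 and 4.44 against 12 and 9.42. The late ones were the histone H3 lysine demethylases Kdm5a (3.9 to 9.01) and Kdm5b (7.97 to 9.27) and the methyltransferase gene Dot1l (6.35 to 9.6). The machinery of m6A itself had 8 of 22 marked genes in all libraries, 1 late-embryo-only, Cbll1 of the writer complex (6.88 to 15.7), and 1 oocyte-only, Ythdc2, a reader and helicase needed in meiosis (4.86 to 8.32). Cell cycle and p53 genes had 1 each way of 28, the apoptosis regulator Bcl2l10 in oocytes (2.67 to 7.01) and Myc in late embryos (6.02 to 11). Adhesion and actin genes also had 1 each way of 28, Cdh2 in oocytes (6.32 to 8.2) and the integrin gene Itga5 in late embryos (5.97 to 9.8). The median difference was -0.5 libraries for cell cycle and p53 genes and -1 for adhesion and actin genes, both on the late side.

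**Figure D4:**
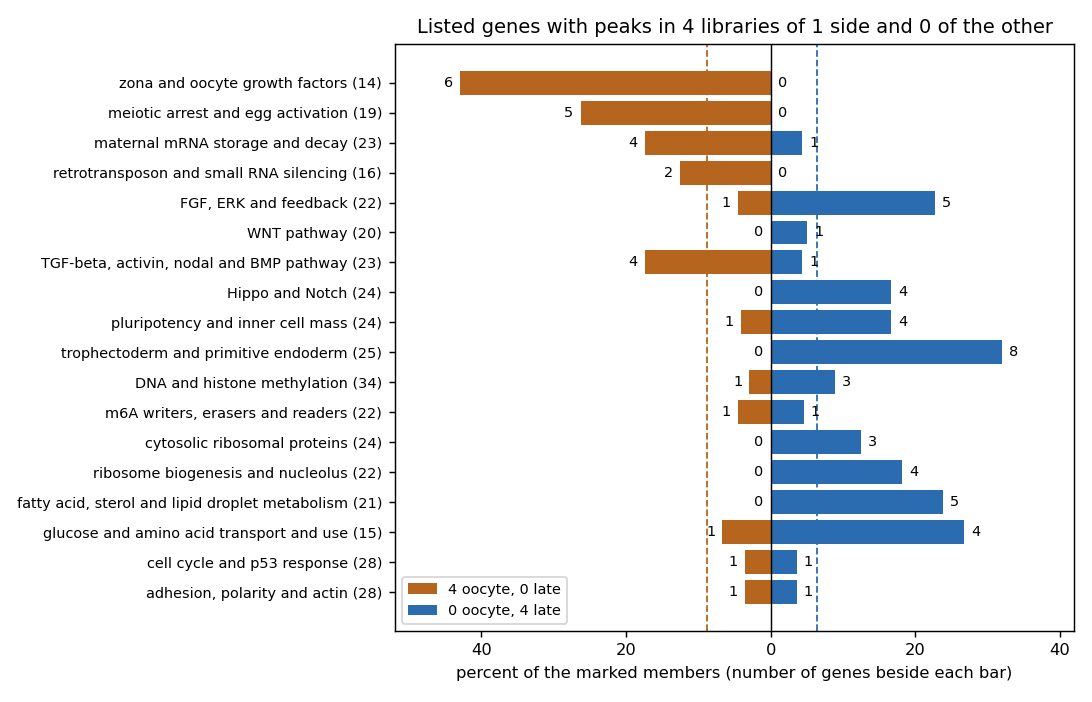
For 18 gene lists, the percent of marked members with peaks in 4 oocyte and 0 late embryo libraries (left) and in 0 and 4 (right); the number of marked members is in brackets, the number of genes beside each bar, and dashed lines are the shares over all marked genes, 8.75% and 6.44%. The zona and oocyte growth factor list reaches 42.9% on the oocyte side and the trophectoderm and primitive endoderm list 32% on the late side.

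Few genes had their separate peak at the transcription start, and these allow the sequence under it to be shown. A peak covered the first 50 transcribed bases of 20 RefSeq starts in 4 oocyte and 0 late embryo libraries, and of 6 starts in 0 and 4. Rgs2, Obox2, the homeobox gene Onecut1 and the muscarinic receptor gene Chrm3 were among the former, and Spry2 and Hk2 among the latter (Onecut1, Chrm3 and Fam110c below were chosen after their values were seen). GGAC, a common form of the writer's recognition sequence, was searched on the transcript strand alone. It stood in 2 of the 20, in 1 of the 6 and in 20% of all 21262 protein-coding starts in windows of the same length. The 30 bases that hold it are printed for the members at 4 against 0, from RefSeq GRCm38.p6, 5′ to 3′ on the transcript strand, with the motif in capitals.
Hk2: tgctggagtctcaGGACaccacaggctacc
Fam110c: aacttaagtagtctctactGGACaccagcc
The Hk2 stretch is chr6:82774406-82774435 on the minus strand, beginning at base 20 of the transcript, under a peak with a mean fold of 8.77 in the late libraries. The Fam110c stretch is chr12:31073988-31074017 on the plus strand, beginning at base 21, under a peak with a mean fold of 5.44 in the oocyte libraries. A match of 4 letters in this window is a description and marks no modified base.

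Most genes marked in all 8 libraries had a merged peak region in common. Peaks of all libraries were merged into 26373 regions. Of the 1363 genes marked in all 8 libraries, 1105 (81.1%) had a region with peaks of all 8, and 258 (18.9%) had none. Peaks merged into a region need not all share a base. With regions built from 200 bp around each peak midpoint, the numbers were 977 (71.7%) and 386 (28.3%). In 17 genes with no merged peak region of all 8, oocytes and late embryos had separate sites. These were a region with 4 oocyte and 0 late embryo libraries and another with 0 and 4. The 6 highest-ranked of them are long genes. In Drd3, a dopamine receptor gene, the oocyte site was chr16:43778746-43779100, with folds of 8.93 to 11.3 in oocytes and peaks through the 2-cell libraries. Its late site lay upstream at chr16:43766230-43766624, with folds of 3.53 to 5.01 and no earlier peak. Erc2, a presynaptic scaffold gene, had 1 late site (8.33 to 24.3) and 4 oocyte sites. Enox1 had 1 late site (6.55 to 15.1) and 3 oocyte sites, and Sil1 and Reps2 had 1 of each.

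Pds5b, which encodes a cohesin regulator, had its 2 sites closest together of the 6. The late site at chr5:150800527-150801163 had folds of 3.73 to 9.78 and lay 9824 bp from the gene end. The oocyte site at chr5:150803129-150803690 had folds of 3.29 to 12.1 and lay 7260 bp from it. In the 2-cell libraries both sites had peaks, with folds of 8.4 and 4.57 at the late site and 16.8 and 17.5 at the oocyte site. Across the genes marked in all 8, 131 regions were oocyte-only and 109 late-embryo-only. Of those in genes long enough and with a strand, 2.86% of the oocyte-only and 24.1% of the late-only regions lay within 2000 bp of the 3′ end, against 23.6% of the 1255 regions shared by all 8. More than 5000 bp from both ends lay 83.8%, 63% and 50.4%.

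Oocyte-only genes were longer than late-embryo-only genes. Their median length was 62416 bp, against 21758 bp for late-embryo-only genes, 36284 bp for genes marked in all 8 libraries and 29165.5 bp for all marked genes, and 55.6%, 20.4%, 39.9% and 33.8% spanned over 50000 bp. Inside the longer of these genes, 59.8% to 64.6% of the peaks of an oocyte library were over 5000 bp from both ends in oocyte-only genes, and 33.8% to 36.9% of the peaks of a late library in late-embryo-only genes. In genes marked in all 8 libraries this share was 54% to 61.6% for oocyte peaks and 55.6% to 57.5% for late peaks. Over all marked genes it was 45.9% to 61.7%. The oocyte-only genes thus lay close to the genes marked in all 8, and the late-embryo-only genes below both. A comparison by 3′ end is void for the oocyte-only genes, because a strand was at hand for 78.2% of them, under the 80% needed. Among genes under 50000 bp the order of the 2 counts turned, to 363 oocyte-only and 479 late-embryo-only. It turned likewise when only peaks within 2000 bp of a gene end were used, to 299 and 388, and when every list was reduced to its 7943 best peaks, to 648 and 691. A longer gene body offers more room for a peak of any origin, and the part of length in these counts was not tested. By chromosome, oocyte-only genes outnumbered late ones most on chromosome 1, with 72 against 24 of 570 marked genes, while on chromosome 11 there were 35 against 51 of 684.

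Outside genes, most complete contrasts were on the oocyte side. Oocyte lists held 2006 to 2475 peaks outside genes each and late embryo lists 343 to 747. The regions outside genes therefore come largely from oocyte lists, and their counts partly restate the shares of peaks given above. Of 4528 merged regions outside genes, 1281 (28.3%) had 4 oocyte and 0 late embryo libraries, 77 (1.7%) had 0 and 4, and 7 had all 8. In protein-coding genes the numbers were 1374 (6.84%), 803 (4%) and 1255 of 20075 regions. Median widths of the oocyte-only regions were alike in the 2 classes, 530 and 539 bp. The oocyte-only regions outside genes lay a median of 16745.0 bp from the nearest gene of any kind, and 292 of them (22.8%) lay within 5000 bp of one. The highest-ranked was chr8:84286808-84288256, 5204 bp from the pseudogene Gm18677, with folds of 9.76 and 8.04 in GV and 5.82 and 9.49 in MII libraries. Another, at chr6:78944774-78945370, had 6.13 to 10.6 in oocytes and 31.6 and 10.1 in the Zygote libraries.

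Late-embryo-only regions outside genes lay nearer to genes, at a median of 8339.0 bp, with 27 of 77 within 5000 bp. The 3 highest-ranked were the Spry2 start peak, whose midpoint lies 22 bp outside the gene, and a pair on chromosome X. Of the latter, chrX:5114535-5115007, 33571 bp from the pseudogene Gm14367, had folds of 10.9 and 10.3 in 8-cell and 13.3 and 23.6 in blastocyst libraries. The region chrX:33853805-33854477, 22255 bp from the pseudogene Gm5378, had 8.84 and 11.1, then 12.3 and 23.4. Neither had a peak before the 8-cell stage.

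Non-coding genes were counted from peaks that touch no protein-coding gene. Of 782 marked long non-coding RNA genes, 224 were oocyte-only, 19 late-embryo-only and 9 marked in all 8. Over all marked protein-coding genes the shares were 8.75% oocyte-only and 6.44% late-embryo-only. By region, 19.9% of the 1770 regions in non-coding genes only were oocyte-only and 4.86% late-embryo-only. Over all 26373 regions these shares were 11.4% and 3.66%. Whether the classes differ was not tested. Oocyte lists held 599 to 833 peaks in non-coding genes only and late embryo lists 356 to 482, so these counts partly restate the make-up of the lists. The genes named here were chosen after their values were seen, and none of the 224 oocyte-only long non-coding RNA genes is among them. Xist, the RNA that silences an X chromosome, was late-embryo-only, with folds of 13.1 and 13.5 in 8-cell and 17.1 and 15.9 in blastocyst libraries and no peak in any oocyte, Zygote or 2-cell library. Neat1, the scaffold RNA of paraspeckles, showed the same order at 3.14 to 6.26, as did Platr14 at 5.31 to 8.13. Malat1, a nuclear speckle RNA, and Norad, a cytoplasmic RNA that binds Pumilio proteins, were marked in all 12 IP libraries, with folds of 3.8 to 15.3 and 6.41 to 28.8. Pseudogenes, at 79 oocyte-only and 64 late-embryo-only of 497, were far more even. Those named after ribosomal proteins stood at 1 and 9 of 36.

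Zygote and 2-cell libraries, which took no part in choosing the genes, place the 2 sets in time. Of the 818 oocyte-only genes, 78.1% and 92.4% were marked in the 2 Zygote libraries and 39.4% and 36.7% in the 2-cell libraries. Of the 602 late-embryo-only genes, 0.831% and 2.16% were marked in the Zygote and 48% and 56.1% in the 2-cell libraries. Genes marked in all 8 stood at 77.9% and 93.8%, then 80% and 83.7%. Over all 9352 marked genes the shares were 31.8% and 44.2% in the Zygote and 36.4% and 40% in the 2-cell libraries. The oocyte-only genes stood above that background in both Zygote libraries and beside it in the 2-cell libraries. The late-embryo-only genes stood below it in the Zygote and above it in the 2-cell libraries. The background is an unlike basis, since it also holds genes marked in only 1 of the 8 libraries, whereas both sets needed 4. In the 2-cell libraries both sets stood below the genes marked in all 8. By gene, 274 oocyte-only genes (33.5%) were marked in both Zygote and neither 2-cell library, and 212 (25.9%) in both of each. In the late set, 245 (40.7%) were marked in neither Zygote and both 2-cell libraries, and 220 (36.5%) in none of the 4. Of the oocyte-only regions outside genes, 87.4% and 95.9% had peaks in the Zygote and 58.3% and 55.1% in the 2-cell libraries.

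**Figure D5:**
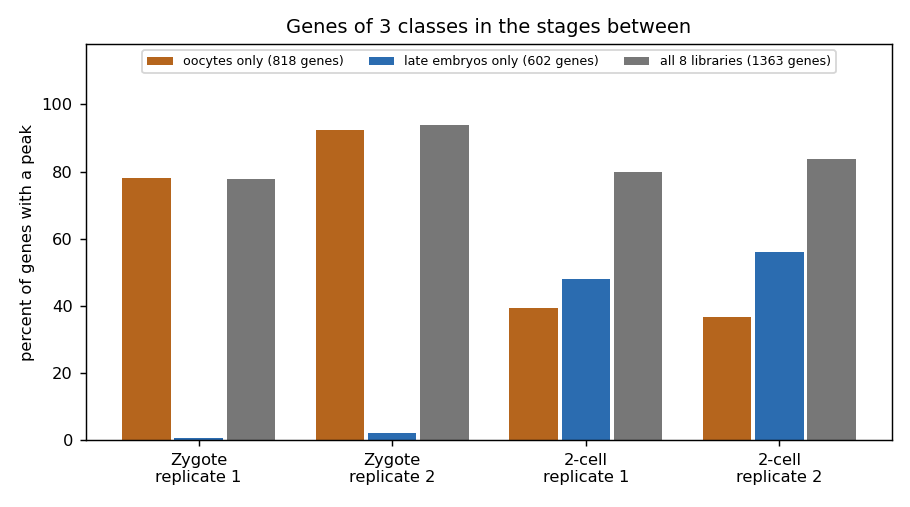
Percent of genes with a peak in each Zygote and 2-cell library (bars), for the 818 oocyte-only, 602 late-embryo-only and 1363 genes marked in all 8 compared libraries. Late-embryo-only genes are almost unmarked in Zygote libraries (0.831% and 2.16%) and near the middle of the scale in 2-cell libraries (48% and 56.1%).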

How the data were processed

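Peak lists of 12 IP libraries were available, 8 of them compared; the input libraries have no list of their own here. Per the submitters' processing notes, the build was mm10, and the tools were MACS2 2.1.2, HISAT2 2.1.0, cutadapt 1.8.1, bedtools 2.28.0, SAMtools 1.9, FastQC 0.11.8 and deepTools 3.2.0. Each deposited list gives, per summit, the authors' score, fold (a ratio of IP over background), −log10 p, −log10 q and a further column with the summit offset. The lowest −log10 q was 1.3. Depth is unknown, and peak strand and exons were not used.

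From these, summits sharing an interval were joined, on chromosomes 1 to 19, X and Y, giving 77997 peaks from 99746 summits in the 8 lists. Gene bodies came from the RefSeq GRCm38.p6 table and strands, for 17491 of 21883 protein-coding genes, from its start table. A peak marked a gene at an overlap of 1 bp or more; 3.41% of peaks overlapped several protein-coding genes. Regions are peaks of the libraries merged. Library values were compared by exact permutation of 4 against 4 libraries (70 arrangements), genes by Fisher's exact test with Benjamini-Hochberg adjustment. Named genes were the 14 of each direction with the highest mean percentile of their best peak, the 4 highest marked in both and in no 2-cell libraries, up to 5 per gene list, 6 genes with separate sites and 3 regions outside genes per direction. Some genes that this rule names are not reported here. The members, the rule, the 18 gene lists and the tests were chosen with earlier results of these data known. The scripts were tested on simulated data. Python 3.11.15, numpy 2.4.6, pandas 2.3.3, scipy 1.17.1 and matplotlib 3.10.9 were used.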

Additional observations from a re-analysis of the deposited data

How the results depend on the processing

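Alternatives that moved a result were these. With a −log10 q of at least 5, oocyte libraries had 2403.2 more peaks than late ones and 8.46 points more peaks deep inside genes (exact permutation p = 0.0286 each). With the same number of peaks per list, oocytes had fewer marked genes (difference -759, exact permutation p = 0.0286) and the 3′ end difference was -7.71 points (exact permutation p = 0.0571). Leaving out 1 library, the difference in peaks ran from 1398.2 to 2396.2, and was past the threshold only without MII replicate 2, and the 3′ end difference ran from -9.67 to -6.25 points. Calls of oocyte-only genes ran from 0 to 871 and of late-embryo-only genes from 0 to 828; genes marked in all remaining libraries of one side and none of the other numbered 850 to 983 and 616 to 828. Peaks within 2000 bp of a gene end gave 299 and 388 calls (687 together), peaks with at least their list's median fold 435 and 294 (729 together), and genes under 50000 bp 363 and 479 (842 together); each keeps fewer peaks or genes by construction. Adjusting over all 9352 genes gave 0 and 0, with 818 and 602 at an unadjusted p under 0.05 by Fisher's exact test. The share of genes marked in all 8 without a shared site rose from 18.9% to 32.7% at the median fold, where 343 genes remained. It rose to 28.3% with regions of 200 bp around each peak midpoint. The alternatives applied to the 89 named genes only take away peaks or genes, so none of these genes could change direction. Of the 89, 47 lost their 4 against 0 contrast at the median fold and 36 at gene ends. Replicate numbers did not pair the libraries: the 6 correlations of same-numbered libraries' deviations ran from -0.0457 to 0.0102. With the replicate number as a block, of 36 arrangements, p cannot go below 0.0556, which was reached by the shares of peaks outside genes (14.4 points), in protein-coding genes (-16.5), in non-coding genes only (2.07) and near the 3′ end (-8.01). Depth could not be varied, since the lists hold no reads.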
